A study of Mus musculus with 6 samples.

Results

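The 3 largest CD8 T cell clones of the tumor library from CD8-IFNγRKO mice were compared with each other. A clone was a set of cells whose most abundant TRA contig and most abundant TRB contig (assembled alpha and beta chain transcripts of the T cell receptor, TCR) had the same CDR3 nucleotides, the CDR3 being the hypervariable loop that V, D and J joining creates. Of 12214 cell barcodes in the library, 5957 had both chains together with transcripts of *Cd2*, *Cd8a* and *Cd8b1*, and these cells fell into 428 clones, 363 of them single cells. Clone 1 held 1467 cells, or 24.6% of the 5957 (exact 95% interval 23.5 to 25.7). Clone 2 held 1203 cells, or 20.2% (19.2 to 21.2), and clone 3 held 312 cells, or 5.24% (4.69 to 5.83). The clones together were 2982 cells, 50.1% (48.8 to 51.3), among 47860 barcodes of 4 expression libraries. Clone 4, the first one outside the choice, held 259 cells, and since the clones were chosen by their number of cells these sizes are a description.

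Mice bearing the melanoma line B16 engineered to express ovalbumin (OVA) were studied at day 12 according to the labels, and cells sorted as CD45+ CD3+ CD8+ Tomato+ from tumors and draining lymph nodes were sequenced from their 5′ ends, with TCR libraries from both tumors. The clones came from mice of the genotype CD8-Cre IFNgR1flox/flox Rosa26Tomato, in which the CD8 T cell Cre driver removes a floxed part of *Ifngr1* and switches on Tomato. Control mice, CD8-Cre Rosa26Tomato, carried the same Cre and reporter. Cells of 3 mice were pooled into each library, and cells cannot be assigned to single mice from these data. A difference between clones thus cannot be told apart from a difference between mice or their tumors. The clones are therefore 3 groups of cells within 1 library with no replicate. No test was run between them, and every interval covers counting error only, of UMIs (unique molecular identifiers, which mark single RNA molecules) or of cells.

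A T cell inherits its rearranged TRB and TRA genes, 1 or more of each, from its precursor, so that the nucleotides across the joints mark the descendants of a single cell. Expanded clones of CD8 T cells in tumors carry effector molecules such as granzymes and perforin together with inhibitory receptors such as PD-1, while a *Tcf7*-expressing stem-like pool renews them. IFNγ acts through IFNGR1 and IFNGR2 and the kinases JAK1 and JAK2 to induce antigen presentation and other interferon-response genes.

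**Figure D1:**
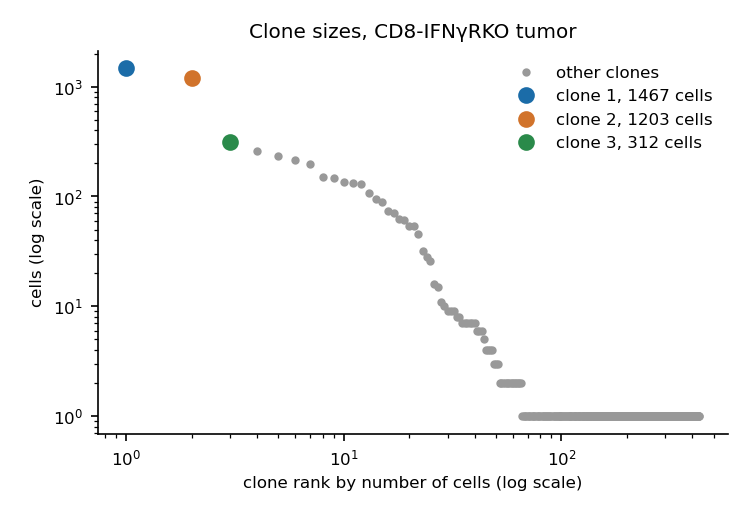
Number of cells (y axis, log scale) of each of the 428 clones against the rank of the clone by size (x axis, log scale). Clones 1 and 2, with 1467 and 1203 cells, stand above a continuous decline that starts at clone 3 with 312 cells and clone 4 with 259.

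The joints of the 3 receptors are shown because they define the clones. Letters in capitals are bases that lie outside the start shared with at least 50% of the other CDR3s of the same V gene and outside the end shared with at least 50% of those of the same J gene, over both TCR libraries.
Clone 1 TRA: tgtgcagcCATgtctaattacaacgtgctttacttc
Clone 1 TRB: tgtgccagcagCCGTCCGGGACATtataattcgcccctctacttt
Clone 2 TRA: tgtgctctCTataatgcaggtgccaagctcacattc
Clone 2 TRB: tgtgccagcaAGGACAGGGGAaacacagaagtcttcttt
Clone 3 TRA: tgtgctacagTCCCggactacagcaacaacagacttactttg
Clone 3 TRB: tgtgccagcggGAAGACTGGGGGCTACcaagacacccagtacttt
Clone 4 TRA: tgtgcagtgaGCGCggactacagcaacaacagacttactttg
The TRA loops of clones 1 and 2 were 36 nucleotides or 12 codons long, and that of clone 3 was 42 nucleotides or 14 codons long. The TRB loops measured 45, 39 and 45 nucleotides. The joint-specific stretch was shorter in the TRA chains, with 3, 2 and 4 bases in clones 1, 2 and 3, than in the TRB chains, with 13, 11 and 16 bases.

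The clones had no V gene in common. Clone 1 joined TRAV7D-2 (chromosome 14, 52683964 to 52684472, mm10) to TRAJ21 (54198790 to 54198846) and TRBV14 (chromosome 6, 41135167 to 41135616) to TRBJ1-6 (41535554 to 41535606). Clone 2 joined TRAV12D-3 (chromosome 14, 52929789 to 52930282) to TRAJ39 (54179962 to 54180024) and TRBV13-3 (chromosome 6, 41130147 to 41130585) to TRBJ1-1 (41533864 to 41533911). Both of these beta chains ended in TRBC1. Clone 3 joined TRAV8D-2 (chromosome 14, 53042428 to 53042891) to TRAJ7 (54211470 to 54211528), and its beta chain was called as TRBV12-2 (chromosome 6, 41118864 to 41119364) fused with TRBV13-2 (41121396 to 41121832), ending in TRBJ2-5 (41543453 to 41543501) and TRBC2. The V and J calls were identical in every cell of each clone. All of these are coding segments of the alpha locus on chromosome 14 and the beta locus on chromosome 6, and RefSeq's annotation of GRCm38.p6, the assembly behind mm10, held all 18 segments looked up for clones 1 to 4.

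Clone 3 and clone 4 were not separate by receptor. They had the same TRB chain, and of their 571 cells 525 (91.9%) carried both the TRAV8D-2 chain that names clone 3 and the TRAV7D-5 chain that names clone 4, 280 cells in clone 3 and 245 in clone 4. Each chain had a median of 11 UMIs in these cells, and TRAV8D-2 gave a median of 51.5% of the alpha UMIs (quartiles 41.9 and 60). The label of such a cell therefore turned on which of 2 chains of like abundance had more UMIs. In 37 cells they were equal, where the order of the contigs decided, and in 116 they lay within 1 UMI of each other. Only TRAV8D-2 was found in 32 cells of clone 3 and only TRAV7D-5 in 14 cells of clone 4. Taken as 1 clone, the pair held 571 cells, still fewer than clone 2. Clones 1 and 2 differed from this, with a second TRA or TRB contig in 0 of 1467 and 0 of 1203 cells. This allows a share of cells with one of up to about 0.204% and 0.249%, taken as 3 over the number of cells and not as the exact interval. No cell of clone 3 had a second TRB either.

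**Figure D2:**
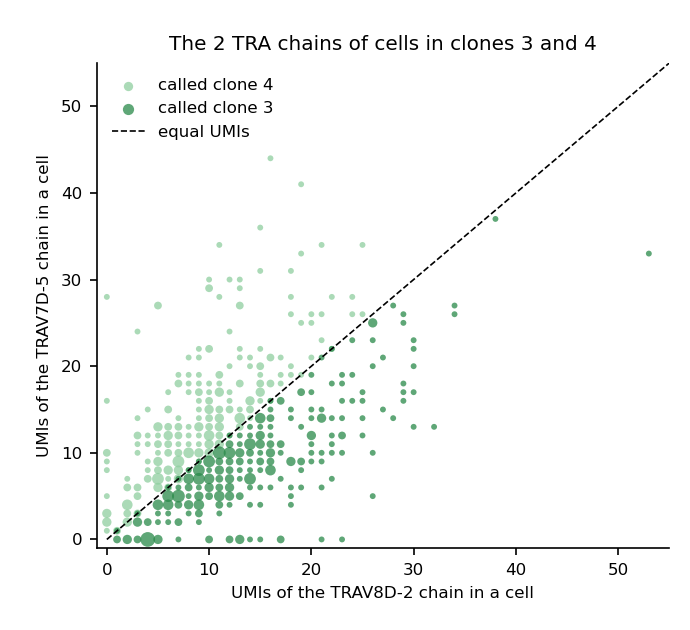
UMIs of the TRAV8D-2 chain (x axis) and of the TRAV7D-5 chain (y axis) in each cell of clones 3 and 4, with larger points for several cells at the same values and a dashed line at equal UMIs. The 525 cells with both chains spread on both sides of the line without a gap, and the 32 and 14 cells with a single chain lie on the axes.

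The chains of clones 1 and 2 were each found with a single partner. The TRB of clone 1 was found in 1751 barcodes, of which 1467 were the clone, 157 had the same pair but lacked transcripts of a marker, 127 had no TRA contig and 0 had another TRA as the main partner. The TRB of clone 2 was found in 1427 barcodes, with 1203, 65, 159 and 0 in these classes. The TRB of clone 3 was found in 981 barcodes and behaved otherwise. Only 312 were the clone, while 444 had another main TRA and 166 had it as a second TRB behind a different one. Besides clone 4, the partners were clone 11 (134 cells, TRAV7-4 and TRAJ21) and a single cell, and it was the second TRB in 89 of 89 cells of clone 15, 52 of 136 of clone 10 and 18 of 71 of clone 17. None of the CDR3 sequences of the 3 clones occurred among 5947 TCR barcodes of the control tumor. Of the clones' 2982 barcodes, 44, 46 and 45 also occurred in the control tumor, the control lymph node and the CD8-IFNγRKO lymph node library. Of all 12214 barcodes of the tumor library, 169, 184 and 187 did so, which is a like share.

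The V segments were also counted in the expression library. It was made from the same cells as the contigs, so this is a second readout and not an independent check. *Trbv14* was at 1881 CPM (counts per 1e+06 UMIs pooled over the cells of a clone) in clone 1 and in 1466 of its 1467 cells. It was at 0.632 CPM in clone 3, in 2 of 312 cells (0.641%), which was taken as the background from RNA of other cells. *Trbv13-3* was at 1023 CPM in clone 2 and in all 1203 cells, against 2.06 CPM in clone 1 and 0.316 CPM in clone 3. In clone 3 *Trbv13-2* reached 1677 CPM and *Trav8d-2* 1224 CPM, each in all 312 cells. *Trbv13-2* was also at 92.0 CPM in clone 1, in 880 of 1467 cells, and at 171 CPM in clone 2, in 968 of 1203 cells. The contigs of clones 1 and 2 were called TRBC1 where a constant gene was called. Of their *Trbc* UMIs, however, 79.9% and 83.3% fell on *Trbc2*. The source of these UMIs was not tested. Clone 4 had *Trav8d-2* at 693 CPM. Clone 2 also had *Trbv14* at 108 CPM, in 849 of 1203 cells (70.6%), although no cell of it had a second TRB contig. This level was above that in clones 4 to 10, which ranged from 0 to 2.87 CPM. At 2000 UMIs per cell *Trbv14* was found in 289 of 1200 cells of clone 2 (24.1%) and 0 of 305 of clone 3, which allows a share of up to 1.20% (exact interval).

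For clones 1 and 2 the alpha segment with most UMIs was not the one in the contig. In clone 1 92.3% of *Trav* UMIs fell on *Trav14n-3* (chromosome 14, 53370077 to 53370575), in 1061 of 1467 cells and at 129 CPM against 0.949 CPM in the other clones. In clone 2 80.2% fell on *Trav6n-5* (53104871 to 53105344), in 1038 of 1203 cells and at 192 CPM against 0.160 CPM in the others. Nearly all UMIs of both genes came from a single clone, 98.1% and 99.7%. The *Trav* genes have near-identical copies among which UMIs can be lost or split, and whether these UMIs came from a second rearrangement was not tested.

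The targeted gene was read first in every library, in cells with the 3 markers. *Ifngr1* was at 715 CPM (708 to 722) in the control tumor and 236 CPM (233 to 239) in the CD8-IFNγRKO tumor, and at 182 CPM (177 to 186) and 137 CPM (133 to 141) in the lymph nodes. Clones 1, 2 and 3 had 217, 204 and 246 CPM, so that the CD8-IFNγRKO clones lay close to their library and below the control tumor. Transcripts are counted from their 5′ end, and the files used here do not show whether those left lack the floxed part.

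Cells were kept only with transcripts of *Cd2*, *Cd8a* and *Cd8b1* and with a TRA contig. The presence of these genes and of *Trac*, all counted among the T cell identity genes, was thus largely fixed by the choice. Of the identity genes outside the choice, *Cd3d* was at 1077, 1051 and 1092 CPM, *Cd3e* at 1251, 1244 and 1394 CPM and *Cd3g* at 1654, 1552 and 1687 CPM in clones 1, 2 and 3. The 7 T cell identity genes were all between 164 and 1687 CPM in the 3 clones, summing to 6449, 6528 and 7417 CPM. Markers of other cell types (25 genes of myeloid, B, NK, γδ, CD4, regulatory T, red blood and melanoma cells) summed to 306, 280 and 203 CPM, of which *Cst3*, which encodes cystatin C, made 280, 214 and 164 CPM. *Lyz2*, *Cd79a*, *Ms4a1*, *Ncr1* and *Hba-a1* were each at 0.323 CPM or less in all 3, and 8, 6 and 10 of the 25 were at 0. At 5 CPM or more were 3, 6 and 5 of the 25. Besides *Cst3* these included *Cd68* (7.13, 9.04 and 10.4 CPM) and *Cd74* (6.12, 19.4 and 6.64 CPM). *Cd4* was at 2.34, 12.8 and 6.64 CPM and *H2-Ab1* at 4.96, 8.97 and 6.96 CPM. How much of this RNA and of *Cst3* RNA came from other cells was not tested. The values rest on 17959691, 15493113 and 3162035 UMIs, with a median per cell of 11531, 11850 and 8860 in clones 1, 2 and 3. Values for clone 3 rest on fewer UMIs and have the widest intervals.

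The clones were alike over most of the transcriptome. Genes with at least 50 CPM in either clone and 100 UMIs over both were ranked by the log2 ratio of CPM with 1 CPM added, and TCR and immunoglobulin segments were left out. Between clones 1 and 2, 15 of 3006 genes (0.499%) were past 2-fold, 7 higher in clone 1 (0.233%) and 8 in clone 2 (0.266%). Between clones 1 and 3 there were 32 of 3096 (1.03%), 21 higher in clone 1 (0.678%) and 11 in clone 3 (0.355%). Between clones 2 and 3 there were 21 of 3107 (0.676%), 14 higher in clone 2 (0.451%) and 7 in clone 3 (0.225%). The interquartile range of the log2 ratios was 0.11 for clones 1 and 2, 0.24 for clones 1 and 3 and 0.23 for clones 2 and 3. Pearson's r of log2 CPM across genes, which are not independent of each other, was 0.987, 0.973 and 0.982. Between clones 3 and 4, which had the same chains and few UMIs, the interquartile range was 0.22. The wider range in pairs with clone 3 was thus also seen within 1 receptor, and the part of depth in it was not tested. Intervals of ratios are those of the counts without the added CPM.

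**Figure D3:**
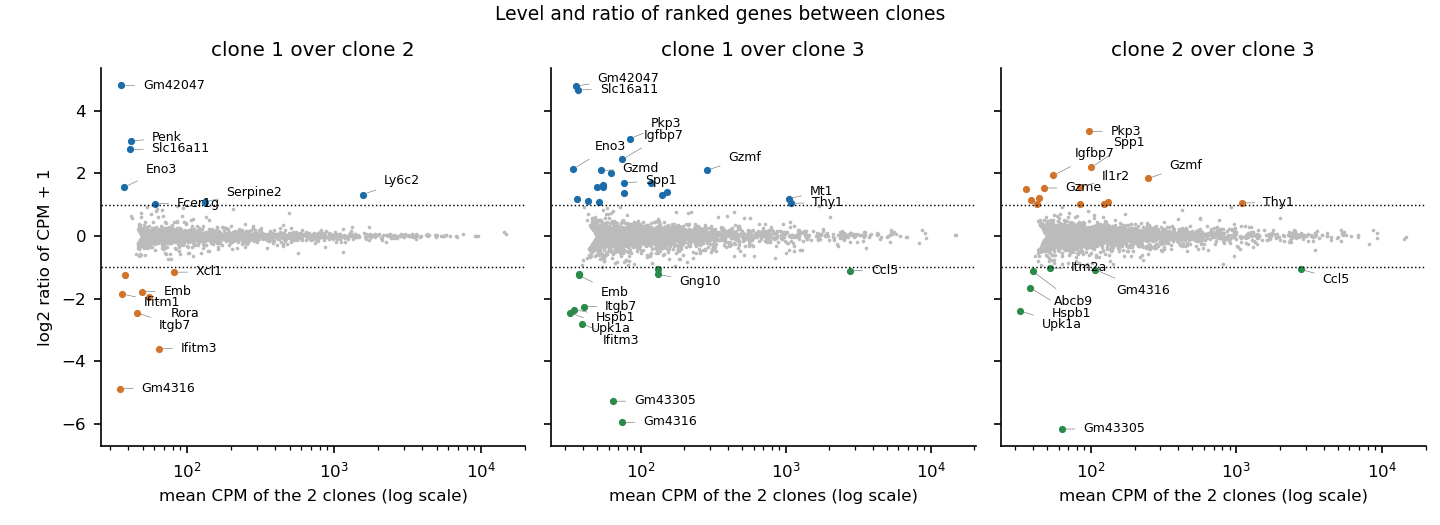
Log2 ratio of CPM with 1 CPM added (y axis) against mean CPM of the 2 clones (x axis, log scale) for every ranked gene, in 3 panels for clone 1 over clone 2, clone 1 over clone 3 and clone 2 over clone 3. Dotted lines mark 2-fold, colored points are the 15, 32 and 21 genes past it (blue, orange and green for higher in clones 1, 2 and 3), and gray points are the rest.

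In all, 39 genes were past 2-fold in at least 1 of the 3 pairs. Clone 1 was highest against both others for 6 of them and lowest for 5. Clone 2 was highest for 3 and lowest for 0. Clone 3 was highest for 5 and lowest for 10.

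Clone 1 was set apart by *Penk*, which encodes the precursor of the enkephalin peptides, at 74.4, 8.26 and 24.7 CPM in clones 1, 2 and 3. Its log2 ratio over clone 2 was 3.02 (2.91 to 3.44). *Slc16a11*, of the monocarboxylate transporter family, was at 72.3, 9.81 and 1.90 CPM and was found in 590 of 1467 cells of clone 1 (40.2%), 123 of 1203 of clone 2 (10.2%) and 6 of 312 of clone 3 (1.92%). *Eno3*, a muscle form of the glycolytic enzyme enolase, was at 56.2, 18.5 and 12.0 CPM. *Fcer1g*, the Fc receptor gamma chain that serves as a signaling adaptor, was at 82.1, 39.8 and 27.2 CPM, and *Serpine2*, a secreted inhibitor of serine proteases, was at 181, 84.3 and 55.3 CPM. These last 3 genes were not particular to clone 1. Among the 22 other clones of 20 cells or more, 2 were above it in *Eno3*, 1 in *Fcer1g* and 1 in *Serpine2*. The highest levels there were 59.1, 209 and 210 CPM and the medians 23.5, 20.8 and 36.9 CPM.

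The surface protein gene *Ly6c2* differed over a broad set of cells. It stood at 2243 CPM in clone 1, in 1437 of 1467 cells (98.0%), at 897 CPM in clone 2, in 914 of 1203 (76.0%), and at 1155 CPM in clone 3, in 257 of 312 (82.4%). The log2 ratio was 1.32 (1.29 to 1.35) over clone 2 and 0.96 (0.91 to 1.01) over clone 3. Among the 22 other clones of 20 cells or more, 10 were above clone 1, 21 above clone 2 and 19 above clone 3, with a median of 2124 CPM. Clone 1 was thus near the middle for this effector and memory marker, and clones 2 and 3 were low.

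Among the 3 clones, clone 1 had the lowest level of a pair of genes on chromosome 7. They encode interferon-induced transmembrane proteins, which hinder virus entry, and only *Ifitm3* was past 2-fold lower against both others. *Ifitm3* was at 9.08, 121 and 69.3 CPM in clones 1, 2 and 3, and was found in 4.36%, 31.3% and 21.8% of their cells. The log2 ratio of clone 1 was -3.60 (-3.97 to -3.50) over clone 2 and -2.80 (-3.23 to -2.63) over clone 3. *Ifitm1* was at 15.2, 57.5 and 28.1 CPM. It was past 2-fold where clone 2 was compared, and only 95 of 1203 cells of clone 2 had it. Among the 22 other clones of 20 cells or more, the medians were 38.5 CPM for *Ifitm3* and 5.18 CPM for *Ifitm1*. For *Ifitm3*, 16 of the 22 were above clone 1, 1 above clone 2 and 5 above clone 3. For *Ifitm1*, 6 were above clone 1, 2 above clone 2 and 5 above clone 3, so that clone 1 was not low for this gene.

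Adhesion and transcription factor genes followed. *Itgb7*, the integrin β7 chain that pairs with the αE or α4 chain, was at 13.4, 78.0 and 67.7 CPM, in 11.9%, 50.7% and 33.97% of cells of clones 1, 2 and 3. *Rora*, a nuclear receptor, was at 21.99, 88.2 and 52.8 CPM, and *Emb*, which encodes the transmembrane glycoprotein embigin, was at 21.7, 76.9 and 53.4 CPM. All 3 were past 2-fold lower in clone 1 than in clone 2 and in clone 3. Their levels in clone 2 and clone 3 differed by less than 2-fold. Among the 22 other clones of 20 cells or more, the medians were 54.8 CPM for *Itgb7*, 27.9 CPM for *Rora* and 50.3 CPM for *Emb*. Of the 22, 20, 15 and 20 were above clone 1 in these genes. Above clone 2 were 5, 1 and 5, and above clone 3 were 7, 4 and 10. Clones 2 and 3 were thus high in the library for *Rora*.

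Few genes were highest in clone 2 among the 3 clones. Of the 22 other clones of 20 cells or more, 9 were above clone 2 in *Xcl1*, 2 in *Ifitm1* and 0 in *Gm47015*. *Xcl1*, the chemokine that attracts dendritic cells bearing XCR1, was at 50.4, 114 and 55.0 CPM in clones 1, 2 and 3, and was highest in clone 2 together with *Ifitm1* and the non-coding *Gm47015*, at 22.1, 54.2 and 23.7 CPM. *Xcl1* lay in few cells, with 47.8% of its UMIs in clone 2 and 92.0% in clone 3 coming from 10 cells. The log2 ratio of Xcl1, clone 2 over clone 3, was 1.03 (0.82 to 1.28) in all cells and -0.0197 in cells called G1, where the levels were nearly equal. No gene was lowest in clone 2 by 2-fold against both others.

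Among the genes for which clone 3 stood apart from both others was *Pkp3*, which encodes the desmosomal protein plakophilin 3. *Pkp3* was at 152 CPM in clone 1, 178 CPM in clone 2 and 16.8 CPM in clone 3, and was found in 71.0%, 79.1% and 10.6% of the cells. The log2 ratios over clone 3 were 3.10 (2.79 to 3.60) for clone 1 and 3.34 (3.02 to 3.83) for clone 2. *Thy1*, which encodes the T cell surface protein CD90, was found in 95.5% of cells or more in each clone but at a level about 2-fold lower in clone 3, at 1467, 1475 and 711 CPM. Its log2 ratios over clone 3 were 1.04 (0.98 to 1.11) and 1.05 (0.99 to 1.12), and it was singled out after its values were seen.

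Several other genes were lower in clone 3 than in clones 1 and 2. *Igfbp7*, a secreted protein that binds insulin-like growth factors, was at 126, 88.3 and 22.5 CPM. *Il1r2*, the decoy receptor for interleukin-1, was at 111, 127 and 42.7 CPM. *Spp1*, which encodes osteopontin, was at 118, 166 and 35.7 CPM, and 86.7% of its UMIs in clone 3 came from 10 cells. *Mt1* and *Mt2*, the metallothioneins that bind zinc and copper, were at 1455, 1198 and 637 CPM and at 221, 179 and 83.2 CPM. *Mt1* passed 2-fold against clone 1 only, whereas *Mt2* passed it against both. Among the 22 other clones of 20 cells or more, the medians were 22.8 CPM for *Igfbp7*, 29.8 CPM for *Il1r2* and 36.6 CPM for *Spp1*. They were 667 CPM for *Mt1* and 111 CPM for *Mt2*. Clone 3 was thus near the middle of the library for *Igfbp7*, *Spp1* and *Mt1*, above it for *Il1r2* and below it for *Mt2*.

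The genes highest in clone 3 were *Upk1a*, which encodes the tetraspanin uroplakin 1A, at 9.41, 9.81 and 55.7 CPM, *Hspb1*, a small heat shock protein, at 10.7, 17.9 and 58.8 CPM, and the chemokine gene *Ccl5*, at 1751, 1802 and 3779 CPM. *Upk1a* was found in 6.54%, 5.90% and 31.1% of cells of clones 1, 2 and 3. *Ccl5* was common, with transcripts in 89.8%, 88.1% and 93.3% of cells. Its log2 ratio was -1.11 (-1.14 to -1.08) for clone 1 over clone 3 and -1.07 (-1.10 to -1.04) for clone 2 over clone 3. Among the 22 other clones of 20 cells or more, 8 were above clone 3 in *Ccl5* and 19 above clone 1 and clone 2. Their median was 2971 CPM, so that clones 1 and 2 were low for this gene. *Hspb1* was rare, in 3.48%, 2.91% and 10.6% of cells. Past 2-fold in a single pair were *Gng10* (78.2 and 185 CPM) and *Cd226* (85.9 and 178 CPM), lower in clone 1 than in clone 3, and *Abcb9* (24.7 and 55.0 CPM) and *Itm2a* (33.9 and 70.2 CPM), lower in clone 2 than in clone 3.

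**Figure D4:**
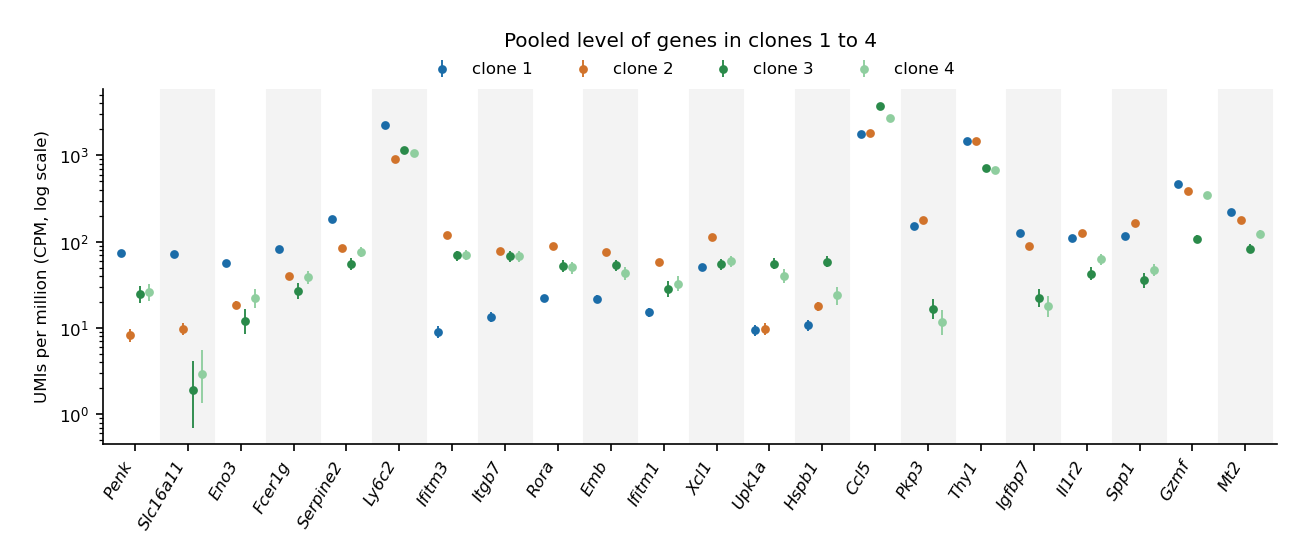
Pooled CPM (y axis, log scale) of 22 genes in clones 1, 2, 3 and 4, with exact 95% Poisson intervals of the counts as bars. Clone 1 stands highest for the genes from *Penk* to *Ly6c2* and lowest from *Ifitm3* to *Ifitm1*, while for *Pkp3* and *Thy1* clones 3 and 4 lie together, at 16.8 and 11.8 CPM and at 711 and 682 CPM, below clones 1 and 2.

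Some of the widest differences were in non-coding genes, named here after their values were seen. *Gm43305* (chromosome 14, 54292441 to 54297488) was at 126 CPM in clone 3, in 160 of 312 cells, against 2.28 CPM in clone 1 and 0.775 CPM in clone 2. *Gm42047* was at 70.0 CPM in clone 1, in 581 of 1467 cells, against 1.55 and 1.58 CPM in clones 2 and 3. *Gm4316* (chromosome 8, 123172562 to 123178767) was at 68.8 and 146 CPM in clones 2 and 3 and at 1.39 CPM in clone 1, in 24 of 1467 cells. In each case the low clones were at a level of few UMIs in few cells and the high ones had the transcript in 39.6% of cells or more. *Gm43305* lies on the same chromosome as *Trac* (54220521 to 54224198), the alpha constant gene.

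Clone 4 served as a comparator with the same chains as clone 3. Between clones 3 and 4, 5 of 3118 genes (0.16%) were past 2-fold, 2 higher in clone 3 (0.0641%) and 3 in clone 4 (0.0962%), and r was 0.991. Of the 15 genes for which clone 3 stood apart from both clones 1 and 2, the level in clone 4 was nearer to clone 3 than to either for 12, among them *Pkp3* (11.8 CPM), *Thy1* (682 CPM), *Upk1a* (40.2 CPM), *Igfbp7* (17.99 CPM) and *Gm43305* (109 CPM). Clone 11, which shares the TRB but not the TRA chains, was nearer to clone 3 for 10 of the 15. Clone 11 was unlike clone 3 in *Pkp3* (116 CPM), *Thy1* (1229 CPM) and *Gm43305* (0 CPM). The same count was not made for clones without this TRB, so the 12 and the 10 of 15 have no background to be set against. The 15 genes were chosen because clone 3 stood apart from clones 1 and 2 in them. Clone 6, which shares neither chain, also lay nearer to clone 3 in *Upk1a* (32.2 CPM), *Gm4316* (123 CPM) and *Gm43305* (134 CPM). It was nearer too in *Ccl5* (5369 CPM), *Hspb1* (74.1 CPM), *Gldc*, *Gzme*, *Gzmf*, *Igfbp7*, *Il1r2* and *Serpinb9b*. It was not nearer in *Pkp3* (219 CPM), *Spp1* (120 CPM) and *Mt2* (134 CPM). A likeness to clone 3 in these genes was thus also found without its receptor.

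The 5 genes past 2-fold between clones 3 and 4 rested on few cells. They were *Gzmf* (108 and 352 CPM), *Gzma* (108 and 263 CPM), *Areg* (37.0 and 89.6 CPM), *Hspb1* (58.8 and 23.9 CPM) and *Serpinb9b* (81.0 and 36.3 CPM). In clone 3 the 10 cells with most UMIs gave 87.1%, 82.1%, 82.9%, 72.0% and 87.1% of the UMIs of these genes. Without the 3% of cells with most UMIs of each gene, which are 9 cells of clone 3 and 8 of clone 4, *Gzmf* was at 18.4 CPM in clone 3 and at nearly the same level in clone 4 (log2 ratio -0.12) and *Gzma* was at 22.4 and 21.4 CPM. After this, 2 of the 5 genes, *Hspb1* and *Serpinb9b*, stayed past 2-fold. The same step, chosen after seeing the data, left 15 of 15, 32 of 32 and 20 of 21 genes past 2-fold for clones 1 and 2, 1 and 3 and 2 and 3, where the level and count limits were read from all cells. Of the 21, *Ifitm1* was lost, and 5, 10 and 5 further genes came past 2-fold. Where the limits were applied again to the trimmed levels, 9 of 15, 18 of 32 and 12 of 21 genes remained, out of 10, 25 and 15 past 2-fold.

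The granzymes encoded side by side on chromosome 14 were the cytotoxic genes that differed most. Granzymes are serine proteases that killer cells release with perforin. *Gzmf* was at 466, 388 and 108 CPM in clones 1, 2 and 3, in 25.1%, 21.7% and 7.69% of cells, *Gzmd* at 86.6, 48.0 and 19.6 CPM and *Gzme* at 100.1, 71.1 and 24.0 CPM. In cells thinned to 2000 UMIs, with shallower cells left out (37, 3 and 7 cells), granzymes C to G together were absent from 65.6%, 69.3% and 85.6% of cells. Without the 3% of cells with most UMIs, *Gzmf* was at 206, 129 and 18.4 CPM. The log2 ratios over clone 3 were then 3.41 for clone 1 and 2.74 for clone 2, against 2.10 and 1.83 in all cells. As fewer cells of clone 3 had *Gzmf*, this step left out a larger part of them, which by itself raises the ratios. *Gzmb* differed little, at 4850, 4985 and 5589 CPM, and *Prf1*, which encodes perforin, was at 1235, 1064 and 902 CPM. Over the 21 cytotoxic granule genes, the summed level was 14661, 14291 and 14661 CPM. Between clones 1 and 3 5 of 19 ranked genes were past 2-fold higher in clone 1, *Gzmd*, *Gzme*, *Gzmf*, *Serpinb9b* and *Serpine2*, and 0 were lower, where 21 of 3096 (0.678%) of all ranked genes were higher. The median log2 ratio was 0.14 against -0.00 over all ranked genes. UMIs of such related genes may be split between them.

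Of 18 inhibitory receptor genes, 9 were abundant enough to be ranked in each pair, and these differed by less than 2-fold. Of all ranked genes only 0.499%, 1.03% and 0.676% were past 2-fold in the 3 pairs, so that a count of 0 among 9 is near this share. The summed level of the list was 2638, 2753 and 3041 CPM in clones 1, 2 and 3. *Pdcd1*, which encodes PD-1, was at 659, 659 and 645 CPM, and *Havcr2*, which encodes TIM-3, at 245, 232 and 247 CPM. *Lag3* was at 496, 520 and 624 CPM, and *Ctla4* at 402, 506 and 564 CPM. *Cd160* had the largest range, at 57.5, 97.2 and 99.6 CPM. The transcription factor gene *Tox* was at 90.5, 87.3 and 139 CPM.

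Interferon-response genes were on the whole higher in clone 3 than in clones 1 and 2 by a small margin. The list summed to 19031, 18142 and 20803 CPM in clones 1, 2 and 3, and to 20463 CPM over the other clones of the library. Against clone 3, 30 of 34 ranked genes were lower in clone 1 and 30 of 35 in clone 2, with median log2 ratios of -0.32 and -0.29 where 1562 of 3096 and 1472 of 3107 of all ranked genes were lower, with medians of -0.00 and 0.01. Past 2-fold were *Ifitm3* of the 34, lower in clone 1, and *Ifitm1* of the 35, higher in clone 2. Guanylate-binding protein gene *Gbp2* was at 36.1, 39.4 and 72.4 CPM, *Isg15*, a ubiquitin-like modifier, at 138, 146 and 229 CPM, *Igtp*, an immunity-related GTPase, at 54.7, 60.9 and 98.0 CPM and *Ifi27l2a* at 3091, 2968 and 4026 CPM. The genes of antigen presentation moved less, with *B2m* at 1894, 1895 and 2074 CPM and *H2-K1* at 2299, 2236 and 2427 CPM. Between clones 1 and 2 the list was split, with 13 genes above and 17 below 0 and a median of -0.02. *Ly6c2*, *Ifitm1* and *Ifitm3* were the ones past 2-fold there. Clone 4, with the same chains as clone 3, summed to 18652 CPM, within the range of clones 1 and 2. Of 34 ranked genes, 27 were higher in clone 3 than in clone 4, with a median of 0.14. Of all ranked genes, 1510 of 3118 were higher in clone 3 than in clone 4, with a median of -0.01.

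Among the 3 clones, the genes of the IFNγ receptor pathway were again highest in clone 3, but here clone 1 and not clone 2 was lowest, with sums of 905, 997 and 1200 CPM. The sum was 1193 CPM over the other clones of the library, so that clone 3 was near them and clones 1 and 2 were lower. Against clone 3, 5 of 5 ranked genes were lower in clone 1 and 5 of 5 in clone 2, none past 2-fold. The median log2 ratios were -0.49 and -0.29. Of all ranked genes, 1562 of 3096 and 1472 of 3107 were lower, with medians of -0.00 and 0.01. *Irf1*, an interferon-induced transcription factor, was at 139.9, 186 and 234 CPM, and *Socs1*, a feedback inhibitor, at 43.3, 51.7 and 67.7 CPM. *Jak1* was at 207, 207 and 227 CPM. *Ifngr2* was nearly absent, with 1, 1 and 0 UMIs in clones 1, 2 and 3. In cells with the markers it was at 0.627 CPM in the control tumor and 0.56 CPM in the CD8-IFNγRKO tumor, against 30.1 and 36.1 CPM in the lymph nodes of the same genotypes.

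Genes that T cells switch on within a short time of TCR stimulation were mostly lower in clone 1. Of 19 ranked genes 16 were lower in clone 1 than in clone 2 (median log2 ratio -0.17). Of all ranked genes, 1678 of 3006 were lower there (median -0.01). Of 18 ranked genes 14 were lower in clone 1 than in clone 3 (median -0.27). Of all ranked genes, 1562 of 3096 were lower there (median -0.00). *Egr1* was at 57.9, 86.0 and 99.6 CPM in clones 1, 2 and 3, *Dusp5*, a phosphatase that acts on ERK, at 175, 213 and 286 CPM, and *Junb* at 764, 982 and 959.5 CPM. None was past 2-fold. At a depth of 2000 UMIs per cell, the list had medians of 8, 10 and 11 UMIs per cell, with quartiles of 5 and 13, 6 and 16, and 6 and 17, so that the cells of the clones overlapped widely.

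Cytokine and chemokine genes summed to 4712, 5300 and 7396 CPM, a difference made largely by *Ccl5*. *Ccl3* and *Ccl4*, which encode inflammatory chemokines, were at 409, 468 and 622 CPM and at 1109, 1258 and 1502 CPM. *Ifng* was at 434, 522 and 469 CPM and *Tnf* at 38.4, 58.7 and 41.7 CPM. In both, clone 2 had the highest level. Between clones 1 and 2, *Xcl1* was past 2-fold of 10 ranked genes, where 15 of 3006 (0.499%) of all ranked genes were. Between clones 1 and 3, *Ccl5* and *Spp1* were past it of 9, where 32 of 3096 (1.03%) of all were. Between clones 2 and 3, *Xcl1*, *Ccl5* and *Spp1* were past it of 10, where 21 of 3107 (0.676%) of all were.

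Stem-like transcripts were scarce in all 3. *Tcf7*, which encodes the transcription factor TCF1, was at 1.67, 3.81 and 5.38 CPM, and at 2000 UMIs per cell it was found in 7 of 1430, 9 of 1200 and 5 of 305 cells (0.490%, 0.750% and 1.64%). Over the 2975 cells of the other clones *Tcf7* was at 37.9 CPM, but the low level was shared by the next largest clones, with 1.93 to 7.20 CPM in clones 4 to 7, 9 and 10 and 38.3 CPM in clone 8. The 16 stem and naive genes summed to 369, 447 and 508 CPM against 749 CPM in the other clones. In clones 4 to 7, 9 and 10 this sum was 344 to 549.6 CPM, so that it did not set clones 1 to 3 apart from them. *Klf2*, a transcription factor of resting T cells, was at 150.2, 168 and 267 CPM, and *Ccr7*, the receptor that guides cells into lymph nodes, at 35.7, 53.9 and 18.3 CPM, past 2-fold higher in clone 2 than in clone 3.

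The clones were similar in cell cycle. At 2000 UMIs per cell, 36.6% (34.1 to 39.1), 36.8% (34.1 to 39.6) and 43.3% (37.6 to 49.0) of cells of clones 1, 2 and 3 were called G1, and 32.4% (30.0 to 34.9), 33.0% (30.3 to 35.7) and 29.2% (24.1 to 34.6) G2/M. Without thinning the G1 shares were 33.9%, 35.9% and 41.3%. Clone 4 had 31.0% (25.3 to 37.1) in G1 and 39.7% (33.6 to 46.0) in G2/M. Of 34 ranked G2/M genes 31 were higher in it than in clone 3, where 1608 of 3118 of all ranked genes were. The median log2 ratio of the G2/M genes, clone 3 over clone 4, was -0.26. The number of UMIs per cell moved along with this, with a median of 10819 in clone 4 and 8860 in clone 3, and its part in these shares was not tested. *Mki67*, a marker of cycling cells, was at 184, 178 and 177 CPM in clones 1, 2 and 3.

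Of the other lists, 10 of 13 ranked heat shock genes were lower in clone 1 than in clone 3 (median log2 ratio -0.17), where 1562 of 3096 ranked genes were lower, and 11 of 13 were lower in clone 2 (-0.20), where 1472 of 3107 were. *Hspb1* was the gene past 2-fold. Per cell at 2000 UMIs the list had medians of 24, 23 and 24 UMIs in clones 1, 2 and 3 and 90th percentiles of 41, 40 and 46 UMIs, so that the typical cell was alike and the upper end differed. Of glycolysis and hypoxia genes, 18 of 23 ranked genes were higher in clone 1 than in clone 3 (median 0.08), where 1534 of 3096 ranked genes were, and 18 of 22 were higher in clone 2 (0.10), where 1635 of 3107 were. None of them was past 2-fold, and both medians lay inside the interquartile range of all ranked genes. Galectin, annexin and S100 genes were at 18767, 18808 and 16342 CPM in sum.

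Across the library, 25 clones had 20 cells or more, which left 22 besides clones 1, 2 and 3. *Thy1* lay between 682 and 1601 CPM in these 22, with a median of 1308 CPM, and 21 of 22 were above clone 3, clone 4 being the exception. *Slc16a11* and *Penk* were higher in clone 1 than in each of the 22, whose medians were 3.07 and 2.28 CPM and whose highest levels were 27.5 and 55.6 CPM. *Igfbp7*, *Il1r2* and *Gzmf* were higher in both clone 1 and clone 2 than in each of the 22. The medians of the 22 were 22.8, 29.8 and 103 CPM, against 22.5, 42.7 and 108 CPM in clone 3.

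*Gm43305* fell into separate levels, with 9 of the 22 clones below 5 CPM, 13 at 25 CPM or more (up to 151 CPM) and 0 between. Clones 1 and 2 were in the lower class and clone 3 in the upper. *Gm4316* was at 25 CPM or more in 20 of 22 and below 5 CPM in 1, so that clone 1, with 1.39 CPM, was lower than all of them. *Gm42047* was below 5 CPM in 10 and at 25 CPM or more in 5. *Pkp3* was at 25 CPM or more in 19 of 22, and clone 4 alone was below clone 3.

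**Figure D5:**
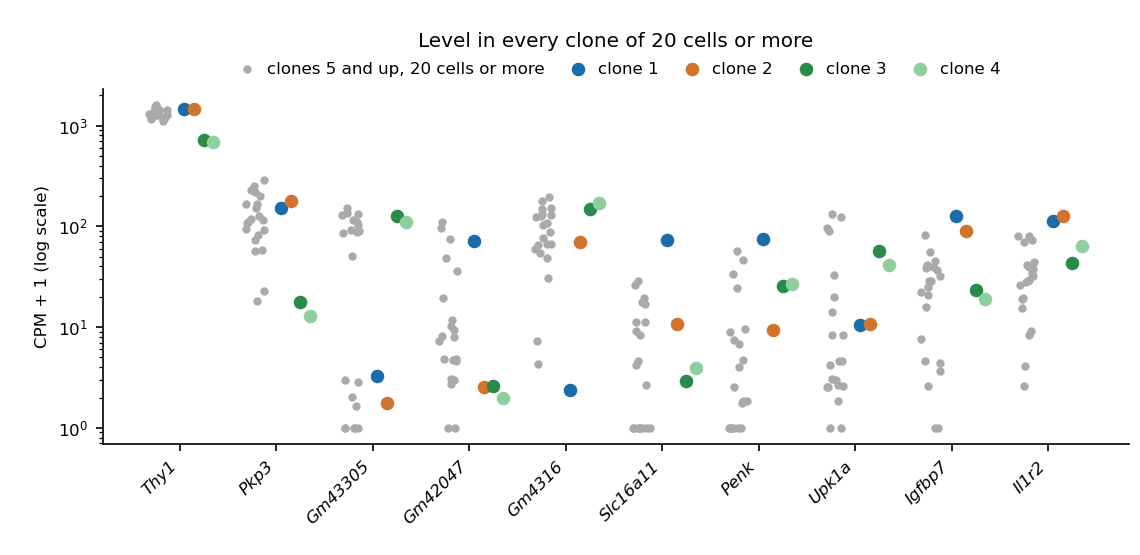
Pooled CPM with 1 added (y axis, log scale) of 10 genes in each of the 25 clones of 20 cells or more, with clones 1 to 4 in color and 21 others in gray. Clones 3 and 4 lie below every gray point for *Thy1*, and gray points for *Gm43305* form separate low and high groups with clones 1 and 2 in the low one and clone 3 in the high one.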

How the data were processed

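Single cells were profiled with 10x 5′ expression and TCR libraries. The authors deposited UMI counts per gene and cell, and lists of TCR contigs with their UMI counts, made with Cell Ranger 6.0.0 on mm10 according to the submitters' processing notes and the file headers; these counts are not normalized. The feature table held 32285 genes. The clones, gene lists and comparisons were chosen with earlier results of these data known.

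A cell belonged to the clone given by the CDR3 nucleotides of its TRA and TRB contig with most UMIs, ties following the order of the contigs. Cells were kept if they had a UMI of *Cd2*, *Cd8a* and *Cd8b1*. UMIs were summed over the cells of a clone and divided by their total (CPM). Genes with at least 50 CPM in either clone and 100 UMIs over both were ranked by log2 ratio with a pseudocount of 1 CPM, and a log2 ratio of at least 1 in size was called past 2-fold. As all cells came from 1 library of 3 pooled mice, no test was made. Exact 95% intervals were Poisson for CPM, Clopper-Pearson for shares and conditional binomial for ratios. The limits for clones in which no cell had a second contig were 3 over the number of cells. All of these cover counting error only.

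Genes were named if they had one of the 6 highest or 6 lowest ratios in a pair, leaving out receptor segments and mitochondrial, ribosomal protein, Gm and Rik genes, or if they belonged to a gene list. *Thy1* and the Gm genes were named after their values were seen. UMIs of near-identical genes (*Trav* copies, *Gzmd*, *Gzme* and *Gzmf*, *Mt1* and *Mt2*, *Ifitm1* and *Ifitm3*, *Ly6c2*) may be split or lost. Cell cycle phases were called with scanpy 1.11.5 after thinning each cell to 2000 UMIs. No doublet caller was run. Scripts ran under Python 3.11.15 with scipy 1.17.1 for intervals, pandas 2.3.3 and numpy 2.4.6 for sums and matplotlib 3.10.9 for plots, and the calculations were tested on simulated data. Alternatives changed the definition of a clone, the cell filters, the weight of cells, the library size, the pseudocount, the minimum level and the depth.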

Additional observations from a re-analysis of the deposited data

How the results depend on the processing

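No paired analysis was possible because each clone is 1 group of cells from 1 library. The order of clones 1 and 2 and their sizes stayed close to those given under each definition and filter tried, whereas clone 3 held 719 cells when clones were defined by the TRB chain alone and 571 when clones 3 and 4 were taken as 1. The number of genes past 2-fold followed the minimum level. With a minimum of 200 CPM it was 1 for clones 1 and 2, 5 for clones 1 and 3 and 3 for clones 2 and 3, and with no minimum it was 87, 122 and 111. For clones 2 and 3 it was 13 with a pseudocount of 10 CPM and 34 in cells called G1. The log2 ratio of Xcl1, clone 2 over clone 3, turned to -0.828 with the TRB chain alone. It was -0.0197 in G1 cells, where the levels were nearly equal. The TRB chain alone brings in clone 11, where *Xcl1* had 1199 UMIs in 134 cells (1039 CPM) against 174 UMIs in clone 3, and for the G1 cells the cause was not tested. Taking clones 3 and 4 as 1 gave 28 genes for clones 1 and 3, 25 of them shared with the 32, and 14 for clones 2 and 3, 12 of them shared with the 21. The joined clone, the G1 cells, clone 3 without cells of equal TRA UMIs and the removal of the 3% of cells with most UMIs were chosen after seeing the data. Fewer UMIs in clone 3 limit what can be read for genes of low level.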

Other observations

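Some of the genes past 2-fold lay within 1 Mb of each other. How often other ranked genes lie as close was not counted. *Ifitm1*, *Ifitm3* and *Pkp3* stood on chromosome 7, with 39.8 kb between the first pair and 67.5 kb between *Ifitm3* and *Pkp3*, although their patterns differed: both *Ifitm* genes were lowest in clone 1 and *Pkp3* was lowest in clone 3. *Slc16a11* and *Eno3* stood 437 kb apart on chromosome 11, and both were highest in clone 1. Genes between them were alike in the clones, with *Rnasek*, which encodes ribonuclease kappa, at 178, 171 and 187 CPM and *Arrb2*, a β-arrestin, at 139, 141 and 137 CPM in clones 1, 2 and 3.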
